A study of Carya illinoinensis with 18 samples.

Results

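The 200 genes described here are those of pecan (*Carya illinoinensis*) leaves whose mean level climbed at every sampling from 0 d to 15 d without water. Levels were given as FPKM (fragments per kilobase of transcript, scaled to the mapped fragments of a library) and were compared as log2(FPKM + 1), written L below. A gene was kept when the means of L rose from each sampled day to the next, when less than 0.5 of its rise had been reached on day 6 and at least 0.5 on day 12, and when its lowest library of 15 d lay above its highest library of 0 d. Its mean on day 0 also had to be under 1000 FPKM and its highest library of 0 d over 0.1 FPKM. Of the 31074 genes in the table, 1471 had day means in this order and 878 met every condition, and the 200 with the largest rise were taken. The values of all 18 libraries chose these genes, so their levels are given as a description, without a test of the rise.

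The seedlings were grafted plants of the cultivar Pawnee on rootstocks raised from seed of the same cultivar, kept well watered and then left without water in a growth chamber for 15 d. Leaves were taken after 3 d, 6 d, 9 d, 12 d and 15 d of drought and, as the untreated control, on day 0, with 3 libraries per day, and each library pools 3 or more plants. No watered seedlings of a later day are among the libraries analysed here, so days without water and days in the growth chamber cannot be told apart. In whole leaves, more RNA of a gene per cell and a larger share of the cells that make it cannot be told apart either.

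A drying leaf loses turgor by degrees. Its guard cells close the stomata under the hormone abscisic acid, and as the water deficit deepens the leaf cells make compatible solutes, enzymes that remove reactive oxygen species, and hydrophilic protective proteins such as the late embryogenesis abundant proteins. Genes of such responses are known from many plants to answer at different degrees of water deficit.

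Which proteins the 200 genes encode is not said by the table, and 0 of its 31074 identifiers were found in the RefSeq gene table of pecan. The genes are therefore given by their rank in the size of the rise, and only 2 of them by identifier. Between libraries, the FPKM of all genes summed to between 545598 and 587063, and depth differed by up to 1.38 times, as read from the smallest steps of low FPKM values. The median change of all 24443 genes with a mean of at least 0.1 FPKM was -0.24 on the log2 scale for 15 d against 0 d.

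Over all genes tested, the libraries of a day had correlations of L as low as 0.879 on days 3 and 9 and 0.862 on day 12. On day 3, replicate 2 had correlations of 0.893 and 0.879 with replicates 1 and 3, and without it limma (Benjamini-Hochberg adjusted p under 0.05) called 834 genes as higher on day 3 than on day 0, against 1 with it, with 0 of the 200 genes among them in both fits. In the 200 genes the libraries of 9 d and 12 d stood furthest apart. Over 22415 tested genes that meet neither this rule nor its mirror image for falling genes, 9 d replicate 1 had a correlation of L of 0.984 with 12 d replicate 1, against 0.899 and 0.929 with the other libraries of its own day. In the same way, 12 d replicate 2 had a correlation of 0.957 with 9 d replicate 2 and 0.965 with 9 d replicate 3, against 0.934 and 0.886 with 12 d replicates 1 and 3. The libraries keep their labels throughout. Whether columns or labels of 9 d and 12 d were exchanged was not tested, and an exchange would change the means, shares and calls of both days and the choice of the 200 genes. The climb of the 200 genes is therefore one of day means, and library by library it was not gradual at 9 d and 12 d.

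CIL1449S0008 had the largest rise of the 200 genes, 10.24 on the log2 scale between 15 d and 0 d. It had 4.4, 46.5 and 41.0 FPKM in the libraries of 0 d, 43.4, 62.9 and 63.9 on day 3, and 145, 241 and 104 on day 6. On day 9, it had 1502, 145 and 186 FPKM, on day 12 2147, 57.0 and 15580, and on day 15 31425, 24218 and 25113. The 9 d and 12 d libraries thus did not form steps of a ramp: 9 d replicates 2 and 3 were within the range of 6 d, 12 d replicate 2 was lower than every library of 6 d, and 9 d replicate 1 and 12 d replicates 1 and 3 were at or above 1502 FPKM. On day 15 the gene averaged 26919 ± 3928 FPKM (SD, n = 3), against 30.7 ± 22.9 on day 0, and it had the highest mean of all genes in the table on day 15, whereas it ranked 3800 on day 0. On day 0, its replicate 1 was far below the other libraries of that day.

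The gene of rank 2 had 0.28, 5.11 and 4.07 FPKM on day 0, 5.69, 6.21 and 6.24 on day 3, and 7.42, 6.31 and 8.74 on day 6. It had 206, 10.5 and 10.3 FPKM on day 9, 289, 13.1 and 1655 on day 12, and 3559, 3247 and 3032 on day 15. Its level in 12 d replicate 2 was thus close to that in 9 d replicates 2 and 3, and 9 d replicate 1 was closer to 12 d replicate 1 than to its own day. The gene of rank 3 had 0.20, 8.49 and 6.54 FPKM on day 0, 7.06, 9.61 and 9.72 on day 3, 41.1, 135 and 9.66 on day 6, 1283, 163 and 170 on day 9, 994, 10.4 and 3363 on day 12, and 3454, 3527 and 3610 on day 15. Here 12 d replicate 3 was just under the libraries of 15 d, while 12 d replicate 2 and 6 d replicate 3 were close to the level of 3 d.

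CIL0798S0001, near the end of the ranking with a rise of 3.93, was the gene whose 5 steps between day means were most alike in size. Its day means were 0.21, 1.03, 3.21, 9.29, 14.5 and 17.2 FPKM from 0 d to 15 d, which looks like a steady climb. Its libraries were 0, 0.13 and 0.50 FPKM on day 0, 0.85, 1.09 and 1.16 on day 3, 2.07, 3.14 and 4.41 on day 6, 21.3, 1.57 and 5.03 on day 9, 17.6, 2.47 and 23.5 on day 12, and 16.7, 17.3 and 17.6 on day 15. Up to 6 d every library lay above every library of the day before. From 9 d on the libraries were either between 1.57 and 5.03 FPKM or between 16.7 and 23.5 FPKM, with none in between, and both 9 d replicate 1 and 12 d replicate 3 were above all libraries of 15 d. The even spacing of the means on days 9 and 12 was therefore an average over low and high libraries.

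**Figure D1:**
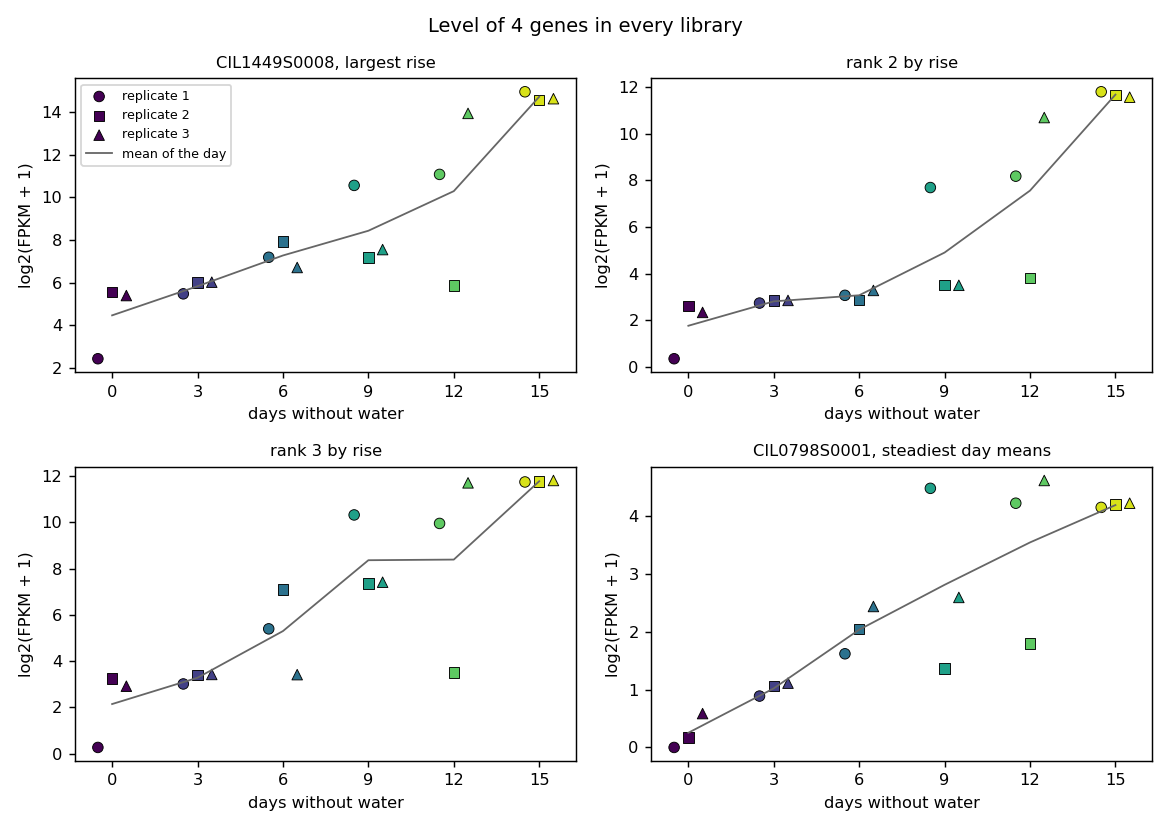
Level of 4 of the 200 genes, as log2(FPKM + 1), against days without water, with 1 point per library (circle, square and triangle for replicates 1, 2 and 3) and a line through the day means. In each panel the line climbs at every day, whereas 9 d replicate 1 sits high and 12 d replicate 2 low among the libraries around them.

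On day 0 the 200 genes were mostly weakly expressed, with a median of the day means of 1.23 FPKM (lowest 0.0367, highest 39.5). Of these genes, 94 had a mean under 1 FPKM, 86 between 1 and 10 FPKM and 20 at 10 FPKM or more, and 26 were listed at 0 in at least 1 library of 0 d. The median of the means was 2.47 FPKM on day 3, 7.80 on day 6, 23.5 on day 9, 51.0 on day 12 and 119 on day 15. On day 15, 93 genes had a mean between 10 and 100 FPKM, 91 between 100 and 1000 FPKM and 16 over 1000 FPKM. The mean FPKM on day 15 was 101 times that on day 0 at the median, with a range of 16.5 to 1271 times. On the log2 scale the rise was 5.32 at the median and between 3.88 and 10.24, and this scale understates the change of genes with low FPKM. Chosen anew without 12 d replicate 3, the 200 genes had a median rise of 3.50. The gene of rank 200 rose by 3.88 (41.7 FPKM on day 15 and 1.96 on day 0) and the next gene, just outside, by 3.86 (198 FPKM on day 15 and 12.9 on day 0).

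Together these genes took up a large part of the FPKM of the leaves of day 15. They held 18.5%, 16.6% and 15.9% of the FPKM sum of the libraries of 15 d, against 0.0903%, 0.134% and 0.156% on day 0. CIL1449S0008 alone held 4.31% to 5.55% on day 15, and the 10 genes with the largest rise held 7.79% to 9.26%. On day 3 the share of the 200 genes was 0.202% to 0.254% and on day 6 0.487% to 0.781%. On day 9, it was 8.14% in replicate 1, against 0.819% and 1.23% in the other libraries. On day 12, it was 6.65%, 0.627% and 13.4%, so that the share in 12 d replicate 2 was within the range of 6 d. Of the 50 genes with the highest mean FPKM on day 15, 20 were among the 200, and of the 500 highest, 85 were. The rule took the largest rises among 31074 genes, which favours genes of high level on day 15. The shares and counts of day 15 are therefore a description. The limit of 1000 FPKM on day 0 keeps the strongest genes of that day out of the 200, so no such count is given for day 0. FPKM is scaled to the mapped fragments of a library, so fragments taken up by these genes leave a smaller share of fragments for all others. The FPKM sum itself is not fixed, and the part of this in the levels of other genes was not tested.

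**Figure D2:**
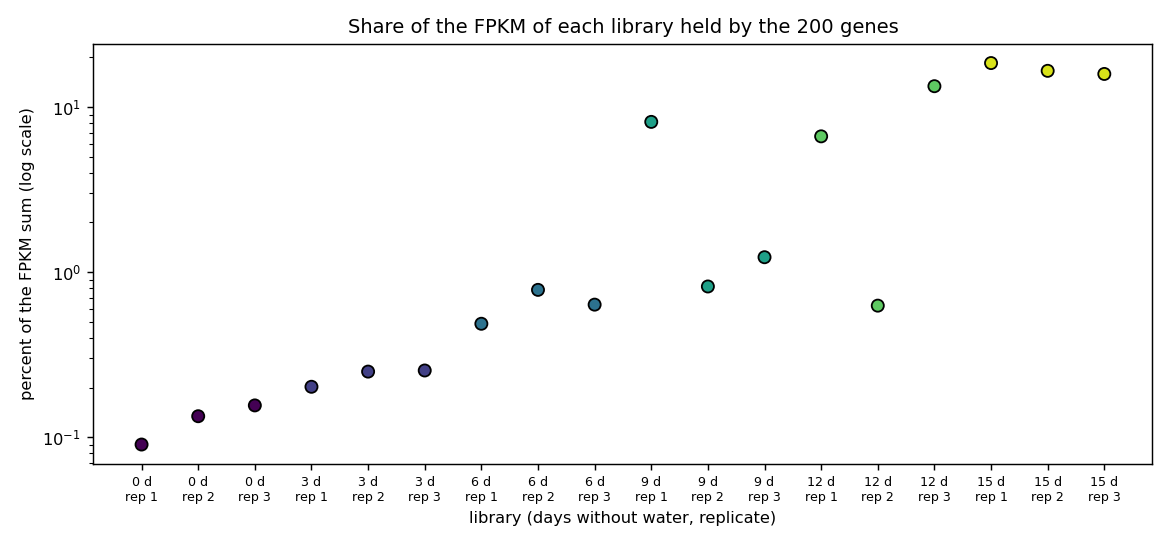
Percent of the FPKM sum of each library that the 200 genes hold, on a log scale, with 1 point per library, coloured by day. The 15 d libraries lie between 15.9% and 18.5% and those of 0 d at or under 0.156%, while the libraries of 12 d run between 0.627% and 13.4%.

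To set genes of different level side by side, each library was given a position, 0 at the gene's mean of L on day 0 and 1 at its mean on day 15. The median position over the 200 genes was -0.04, 0.01 and 0.04 in the libraries of 0 d, 0.09, 0.06 and 0.11 on day 3, and 0.26, 0.36 and 0.33 on day 6. It was 0.79, 0.35 and 0.44 on day 9, 0.78, 0.30 and 0.93 on day 12, and 1.01, 1.01 and 0.97 on day 15. In these numbers the first 6 d form a clear order of days, in which no library of a day overlapped with the day before. The libraries of 9 d and 12 d did not: 12 d replicate 2 lay below both 9 d replicates 2 and 3 and within the range of 6 d, and 9 d replicate 1 lay beside 12 d replicate 1. No library had a median position between 0.44 and 0.78, which leaves 12 libraries below this gap and 6 above it. In 189 of the 200 genes every one of these 6 libraries lay above every one of the 12, and in 128 the gap between them was the widest between any neighbouring libraries of that gene. The libraries were divided by the medians of these same genes, which the rule chose for 15 d above 0 d. Both counts are therefore a description, and no such count was made over all genes.

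**Figure D3:**
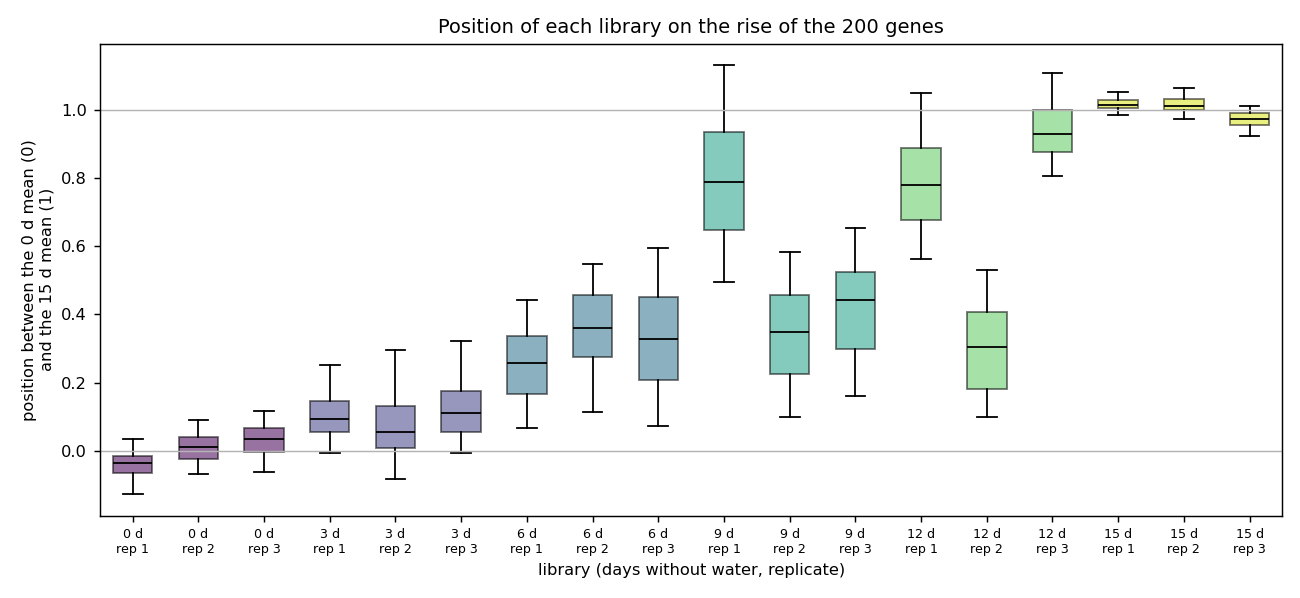
Position of each library between the 0 d mean (0) and the 15 d mean (1) of log2(FPKM + 1), with the median, the quartiles and the 5th to 95th percentiles over the 200 genes. The medians of 9 d run between 0.35 and 0.79 and those of 12 d between 0.30 and 0.93, while the libraries of 0 d, 3 d, 6 d and 15 d stay close to those of their own day.

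The spread between libraries was widest on days 9 and 12. The SD of L within a day was 0.32 on day 0, 0.30 on day 3, 0.45 on day 6, 1.40 on day 9, 1.79 on day 12 and 0.18 on day 15 at the median of the 200 genes. Over all genes tested it was 0.18, 0.28, 0.24, 0.31, 0.35 and 0.17 on the same days. In the 200 genes 12 d replicate 2 was the lowest library of its day in 200 of 200, against 29.7% of all genes tested. The highest was 12 d replicate 3 in 175 (23.0% of all genes tested) and 12 d replicate 1 in 25 (27.9%). On day 9, replicate 1 was the highest in 193 genes, against 27.7% of all genes tested. All genes tested include falling ones, and over them 12 d replicate 2 was the highest of its day in 49.0%. In the same way, 9 d replicate 1 was the lowest of its day in 59.5%. In 106 of the 200 genes 12 d replicate 2 was lower than every library of 9 d, and in 103 it was below the mean of 6 d. In 169 genes 9 d replicate 1 was above the mean of 12 d. No such count was made over all genes. On day 0 the differences were smaller but also shared, with replicate 1, the deepest library, the lowest in 138 genes, against 32.2% of all genes tested. The relative depth of replicates 1, 2 and 3 was 0.822, 0.815 and 0.824 of the deepest library on day 9 and 0.916, 0.997 and 0.989 on day 12. The library lowest in most of the 200 genes was the deepest of its day on days 0 and 12. On days 3, 6, 9 and 15 it was the shallowest of its day (3 d replicate 2, 6 d replicate 1, 9 d replicate 2 and 15 d replicate 3). On days 9, 12 and 15 the depth of this library was within 0.05 (log2) of the next, the tolerance of the depth fit. The order of depth is therefore not resolved on those days. The part of depth in the differences between libraries of a day was not tested.

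The position of a library was also read from genes it had not helped to choose. For each of the 18 libraries the rule was applied to the other 17, and the median position of the left-out library was taken over the 200 genes so chosen. It was 0.80 for 9 d replicate 1, 0.34 for 9 d replicate 2 and 0.44 for 9 d replicate 3, and 0.80, 0.24 and 0.93 for 12 d replicates 1, 2 and 3. The left-out libraries of 15 d lay between 0.96 and 1.02, those of 6 d between 0.25 and 0.36, those of 3 d between 0.05 and 0.11 and those of 0 d between -0.06 and 0.06. Left out of the choice, 12 d replicate 2 thus lay below every left-out library of 6 d, whereas over the 200 genes it lay within the range of 6 d. 9 d replicate 1 and 12 d replicates 1 and 3 stayed above all other libraries of 0 d to 12 d. The genes chosen depended on 1 library in particular: without 12 d replicate 3 only 83 of the 200 genes met every condition and 478 genes of the table did, whereas without any other single library between 153 and 199 of the 200 did.

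Falling genes also placed 9 d replicate 1 high and 12 d replicate 2 low among the libraries of their day. The rule was turned round, to means that fell at every day, and the 200 genes with the largest fall were taken. On a scale of 0 on day 0 and 1 on day 15, 9 d replicate 1 had a median position of 0.91 in them, against 0.30 and 0.44 in the other libraries of 9 d, and 12 d replicate 2 had 0.32, against 0.74 and 0.86 in the other libraries of 12 d. The 678 genes that met the conditions for a rise but were not among the 200 placed 9 d replicate 1 at 0.79 and 12 d replicate 2 at 0.37. These lists use the same libraries as the 200 genes, and no test between them was made.

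**Figure D4:**
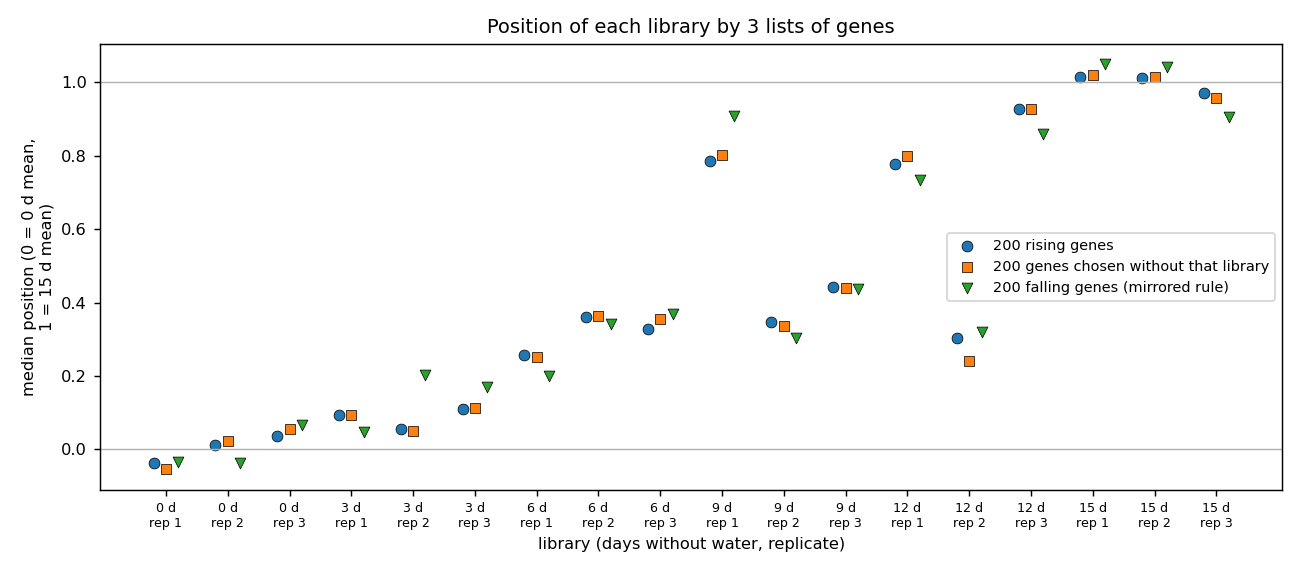
Median position of each library between the 0 d mean (0) and the 15 d mean (1) by the 200 rising genes (circles), by 200 genes chosen without that library (squares) and by 200 falling genes of the mirrored rule (triangles). By each list 9 d replicate 1 lies at 0.79 or higher and 12 d replicate 2 at 0.32 or lower.

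Days could be left out of the rule as well. Without 9 d, 1051 genes met the conditions, and of the 200 with the largest rise 184 had a mean on day 9 between those of 6 d and 12 d. Among the 6424 tested genes that were higher on day 15 than on day 0 and higher on day 12 than on day 6, 60.9% had their 9 d mean in between. Without 3 d, the count was 161 of 200, against 62.7% of 8308 tested genes with the neighbouring days in order. The comparison genes were not matched for the size of the rise, whereas the chosen genes had the largest rises. A wider gap between the neighbouring days leaves more room for the mean of the left-out day. Nothing is therefore read from these counts about a gradual course, and the libraries behind the mean of 9 d stood far apart.

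By library rather than by mean, 0 of the 200 genes had every library of each day above every library of the day before. This count was not made over all genes. All libraries of 3 d lay above those of 0 d in 63 genes (10.5% of all genes tested), those of 6 d above 3 d in 139 (15.8%), those of 9 d above 6 d in 50 (5.13%), those of 12 d above 9 d in 0 (0.921%) and those of 15 d above 12 d in 130 (12%). Libraries of 12 d and 9 d thus overlapped in every one of the 200 genes. The order of 12 d above 9 d was rare over all genes tested as well (0.921%), so its absence is not particular to the 200. Set against 0 d, all libraries of 6 d were higher in 182 genes (27.7% of all genes tested), those of 9 d in 194 (27%), those of 12 d in 193 (23.5%) and those of 15 d in all 200 (28.1%), the last by the rule itself. The rule used these means, so nothing is read from the counts beyond which libraries overlap.

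Differences from 0 d were also tested gene by gene with limma over the 18 libraries, with Benjamini-Hochberg adjustment over 24443 genes and a call at an adjusted p under 0.05. Of the 200 genes it called 0 as higher on day 3 (0.00409% of all genes), 42 on day 6 (11%), 147 on day 9 (15.6%), 200 on day 12 (17.8%) and 200 on day 15 (22.1%). These counts describe the spread and do not support the rise, since the rule used the same means. On day 3, 3 of the 200 genes were higher with an unadjusted limma p under 0.05, and 2751 of all genes had such a p in either direction. limma shares 1 estimate of the spread over all days, so the wide spread of these genes on days 9 and 12 enters each contrast. Fitted on the libraries of 6 d and 0 d alone, which was chosen after seeing the data, 147 of the 200 were called as higher on day 6 (3281 of all genes). In the same way 96 were called on day 9 (2384 of all genes) and 124 on day 12 (2270). The count on day 6 was 101 (3269 of all genes) without 12 d replicate 2 and 75 (3078) without 9 d replicate 1. It was 5, 14 and 23 (1162, 1455 and 2249) without 0 d replicates 1, 2 and 3, and 9 and 20 (1367 and 2113) without 6 d replicates 2 and 3. The count on day 9 was 71 (2475) without 9 d replicate 1, and 78 and 93 (1881 and 2217) without 0 d replicates 1 and 2.

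Between neighbouring days limma called 7 of the 200 genes as higher on day 6 than on day 3 (4.34% of all genes), 0 for 9 d against 6 d (0.00409%), 0 for 12 d against 9 d (0%) and 58 for 15 d against 12 d (5.16%). For 9 d against 6 d, 30 of the 200 genes, and for 12 d against 9 d, 7 were higher with an unadjusted limma p under 0.05. Of all genes, 1677 and 465 had such a p in either direction. The step between 9 d and 12 d was 0.82 on the log2 scale at the median of the 200 genes, and every mean rose by the rule. Since 0 of all genes tested were called in this step, nothing is read about the 200 from their count of 0. Without 12 d replicate 2, 3 of the 200 genes (24 of all genes) were called in this step. Without 9 d replicate 3, 1 of the 200 (8 of all genes) was called for 9 d against 6 d. The count for 15 d against 12 d was 129 (2056 of all genes) without 12 d replicate 3 and 90 (1461) without 9 d replicate 1. It was 29 and 5 (778 and 374) without 12 d replicates 1 and 2, and 2, 10 and 27 (313, 560 and 957) without 15 d replicates 1, 2 and 3. From the libraries of 15 d and 12 d alone it was 0 (0 of all genes). There, 46 of the 200 genes were higher with an unadjusted limma p under 0.05, and 7176 of all genes had such a p in either direction. For 6 d against 3 d the count was 34, 19 and 15 (1419, 1276 and 1286) without 12 d replicate 2, 12 d replicate 3 and 9 d replicate 1. It was at most 4 (507 to 1149 of all genes) without any single library of 3 d, 6 d or 15 d.

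Among themselves the 200 genes differed in how far they had climbed by a given day. The share of the rise reached by the day mean was 0.09 on day 3 at the median (0.05 and 0.14 at the quartiles), 0.34 on day 6 (0.23 and 0.40), 0.52 on day 9 (0.42 and 0.62) and 0.67 on day 12 (0.59 and 0.75), with the values on days 6 and 12 bounded by the rule. The largest single step was that between 12 d and 15 d in 121 genes, that between 3 d and 6 d in 41, that between 6 d and 9 d in 25, that between 9 d and 12 d in 8 and that between 0 d and 3 d in 5.

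These groups also differed in the positions of single libraries. In the 121 genes with the last step as the largest, the median position was 0.69 in 9 d replicate 1, 0.71 in 12 d replicate 1 and 0.90 in 12 d replicate 3. In the 41 genes with the step to 6 d as the largest it was 0.94, 0.92 and 0.98 in the same libraries, and in the 25 with the step to 9 d 0.97, 0.95 and 0.98. In the groups of 41 and 25 genes these libraries were thus close to the level of 15 d, whereas the 121 genes were higher still on day 15. The low libraries were also further up in the 41 genes, with 0.46 and 0.54 in 9 d replicates 2 and 3 and 0.44 in 12 d replicate 2, against 0.30, 0.34 and 0.22 in the 121 genes. The libraries of 6 d were at 0.35, 0.47 and 0.48 in the 41 genes and at 0.22, 0.32 and 0.28 in the 121 genes. The groups were made from the same values, so these positions are a description of how the genes differ in shape. Over all 200 genes the highest library was 1 of 15 d in 158 genes, 1 of 12 d in 22 and 1 of 9 d in 20, and in 65 genes 12 d replicate 3 was at or above the lowest library of 15 d. These counts were not made over all genes.

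**Figure D5:**
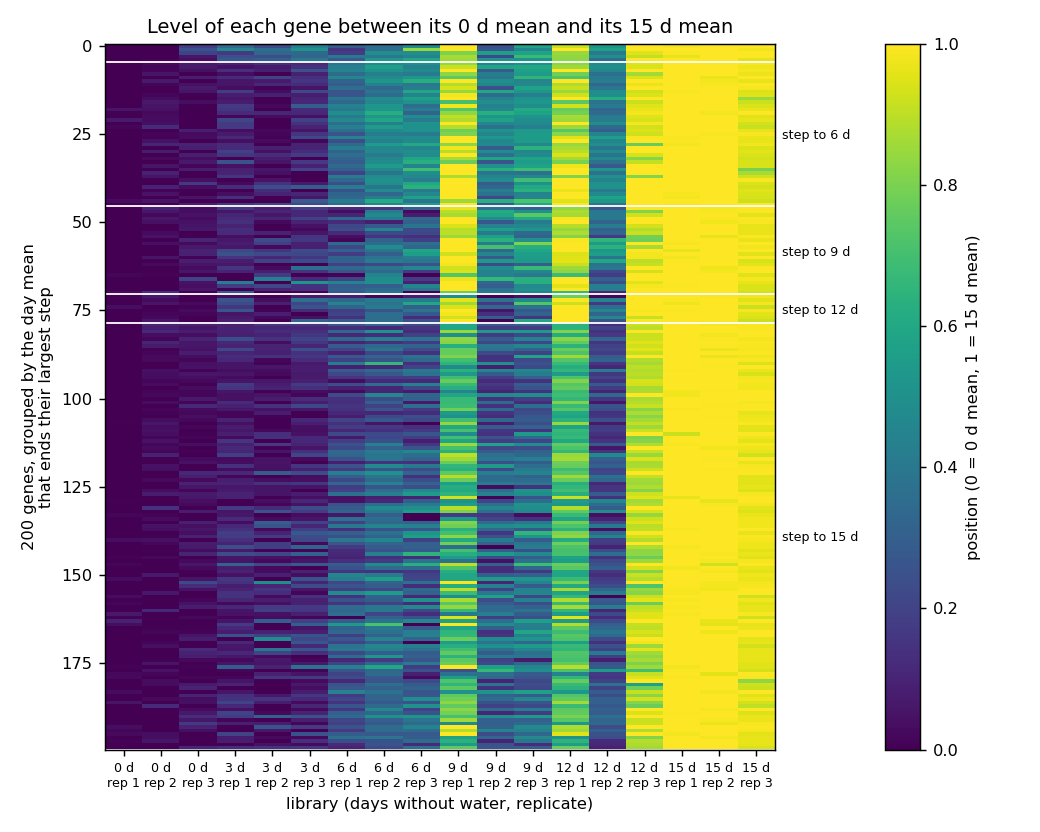
Position of each of the 200 genes (rows) in each of the 18 libraries (columns), with dark for the 0 d mean and bright for the 15 d mean, and rows grouped by the day that ends their largest step (the 5 rows at the top have it on day 3). The columns of 9 d replicate 1 and 12 d replicates 1 and 3 are bright and those of 9 d replicates 2 and 3 and 12 d replicate 2 are darker than these in nearly all rows, and the lowest block of 121 rows is dimmer in 9 d replicate 1 and 12 d replicate 1 than the blocks above it.

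The share of the rise was also set against the level on day 0. The 94 genes under 1 FPKM on day 0 had a median share of the rise of 0.30 on day 6 and 0.66 on day 12, the 86 genes between 1 and 10 FPKM 0.34 and 0.66, and the 20 genes at 10 FPKM or more 0.35 and 0.69, with both days bounded by the rule. On day 3 the median share was 0.08, 0.09 and 0.14 in these groups and on day 9 it was 0.51, 0.52 and 0.59, so the groups of higher level had the higher medians. The 1 added to FPKM compresses changes at low FPKM, and its part in this order was not tested. The median position of 12 d replicate 2 was 0.30, 0.31 and 0.29 in these groups, so it was low in weakly and in strongly expressed genes alike. The strongest of the 200 genes on day 0, rank 154, had 25.1, 26.0 and 67.4 FPKM on day 0, 32.6, 136 and 51.4 on day 3, 67.3, 160 and 63.4 on day 6, 706, 275 and 250 on day 9, 783, 92.1 and 886 on day 12, and 810, 771 and 746 on day 15. This gene too placed 12 d replicate 2 below all libraries of 9 d.

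The identifiers of the table hold a block number and, within it, a gene number. The 200 genes came from 156 blocks, with 1 gene in 124 of them and 7 in the block with the most. Another of the 200 lay within 10 gene numbers in the same block for 26 genes, in 13 pairs, and 12 genes had a direct neighbour in the numbering. In the 200 falling genes of the mirrored rule these counts were 7 genes near another, in 5 pairs, and 2 genes with a direct neighbour. No such count was made over all genes or over the 678 other genes that met the conditions. Nothing is therefore read from these counts about a grouping of the 200 genes. The direct neighbours of ranks 14 and 24 had 649 and 333 FPKM on day 15, against 1.21 and 0.787 on day 0. Whether neighbours in the numbering are neighbours on a chromosome, or similar in sequence, was not tested. The authors used RSEM, which splits a read between the genes it fits, and for pairs that share reads the FPKM depends on that split.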

How the data were processed

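Poly(A) RNA of pecan leaves was sequenced on an Illumina NovaSeq, and the authors computed FPKM with RSEM and deposited the FPKM of every gene in 1 table with 2 decimals. The submitters' processing notes also name fastp 0.18.0, Bowtie2 2.2.8, HISAT2 and StringTie 1.3.1, without their roles. The genome build is not given in the sources used here. The names of the 18 columns gave the libraries, and 0 columns were unused. The 200 genes and all lists were chosen with earlier results of these data known.

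FPKM was transformed as log2(FPKM + 1) without further scaling. limma 3.58.1 (R 4.3.3) was fitted with 1 mean per day on 24443 genes with a mean of at least 0.1 FPKM, with eBayes and a trend, two-sided, and all 200 genes passed this filter. An exact test of 3 libraries against 3 cannot go below 0.1, so calls rest on the spread that limma shares across days. The fit was tested on simulated data. Relative depth was estimated from 2966 genes above 0 in 2 to 10 libraries, and 99.3% of library pairs lay within 0.05 (log2) of the fit. The 2 printed identifiers are the gene with the largest rise and that with the most even steps, and the other genes given in full were those of ranks 2 and 3 and the strongest on day 0 and day 15, the last being rank 1 as well. Alternatives were a pseudocount of 0.1, median-ratio scaling, quantile normalization, no filter, no trend, a minimum log2 difference of 1, the replicate number as a block, and each library left out. Python 3.11.15 with numpy 2.4.6 and pandas 2.3.3 was used.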

Additional observations from a re-analysis of the deposited data

How the results depend on the processing

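The median rise of the 200 genes was 5.68 with median-ratio scaling and 6.46 with a pseudocount of 0.1, with the genes chosen anew each time. Over the original 200 genes, the median share of the rise was 0.134 on day 3 with that pseudocount. On day 6 it was 0.278 with median-ratio scaling and 0.391 with the pseudocount. Of the 200 genes, 157, 177 and 181 met the rule with the pseudocount, median-ratio scaling and quantile normalization. Calls of the 200 genes for 6 d against 0 d were 17 (1254 of all genes) with median-ratio scaling and 25 (1615) with quantile normalization. They were 77 (2843) with the pseudocount and 147 (3281) from the libraries of the 2 days alone. For 6 d against 3 d they were 0, 18 and 33 (639, 1161 and 505) with median-ratio scaling, the pseudocount and the 2 days alone. The 2 days alone gave 96 (2384) for 9 d against 0 d and 124 (2270) for 12 d against 0 d. They gave 0 (0) for 15 d against 12 d, where quantile normalization gave 30 (1455). The cause of these differences was not tested.

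Over all genes, a minimum difference of 1 left 1393, 1854, 2323 and 3409 genes higher on days 6, 9, 12 and 15 than on day 0, and 698 for 15 d against 12 d. Median-ratio scaling gave 1254 for 6 d and 2270 for 9 d against 0 d, 639 for 6 d against 3 d and 2475 for 15 d against 12 d. The 2 days alone gave 2384 for 9 d and 2270 for 12 d against 0 d, 505 for 6 d against 3 d, and 0 for 3 d against 0 d, 9 d against 6 d and 15 d against 12 d, where 2904, 1052 and 7176 genes had an unadjusted p under 0.05 in either direction. For 3 d against 0 d the pseudocount gave 0 and quantile normalization 2, which gave 1615 for 6 d against 0 d. Without a trend, 3 genes were called for 9 d against 6 d.

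Leaving out 1 library at a time gave a median rise of 3.50 (without 12 d replicate 3) to 5.54, with the genes chosen anew each time. Over the original 200 genes it gave median shares of 0.067 to 0.10 on day 3, 0.299 to 0.349 on day 6, 0.389 to 0.612 on day 9 and 0.538 to 0.859 on day 12. The rule was met by 478 to 984 genes and by 83 to 199 of the 200. Calls of the 200 were 5 to 101 on day 6, 71 to 190 on day 9, 162 to 200 on day 12, and in each case 0 on day 3 and 200 on day 15, all against day 0. For neighbouring days they were 0 to 34 for 6 d against 3 d, 0 to 1 for 9 d against 6 d, 0 to 3 for 12 d against 9 d and 2 to 129 for 15 d against 12 d. Over all genes the counts against day 0 were 0 to 834 (without 3 d replicate 2) on day 3, 1162 to 3269 on day 6, 1881 to 4362 on day 9, 2665 to 4944 on day 12 and 4711 to 5545 on day 15. For neighbouring days they were 507 to 1419, 0 to 8, 0 to 24 and 313 to 2056.

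Libraries with the same replicate number did not deviate together at the median (r = -0.04 over 45 pairs of libraries, 15 of them over 0.1). Single pairs ran from r = -0.59 to 0.59, and 5 of 18 libraries correlated best with their own number. With the replicate number as a block, 4 of the 200 genes (920 of all genes) were called for 6 d against 3 d, and 0 of all genes for 3 d against 0 d. The block moved no other count of calls by over 1.5 times. FPKM carries no absolute depth, so no counting interval is given.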
